A study of Mus musculus with 15 samples.

Results

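Mitochondria translate the few proteins encoded by their own genome on a dedicated ribosome, whose protein components are all made from nuclear genes. The mRNA levels of the genes for these mitochondrial ribosomal proteins were examined in mouse hippocampal neural precursor cells carrying an inducible Atf4 cassette, an inducible Atf3 cassette or neither. The genes were chosen by name alone, as protein-coding mouse genes whose symbol is Mrpl or Mrps followed by a number. This rule gave 78 genes among the 55416 gene identifiers counted, 49 named Mrpl and 29 named Mrps, on 17 chromosomes, and it left out 5 pseudogenes. All 78 had a row in the count table, and 77 had enough reads to be tested.

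The mitochondrial ribosome has a small subunit, which holds the 12S rRNA and decodes the mRNA, and a large subunit, which holds the 16S rRNA and joins amino acids. Both rRNAs come from mitochondrial DNA, so the particle is assembled from the products of separate genomes. Many of its proteins descend from bacterial ribosomal proteins, and others are found only in mitochondria. By the standard protein nomenclature, 26 of the 78 genes encode small-subunit proteins and 51 encode large-subunit proteins, among them Mrps30 and Mrps18a in spite of their names. Of these 77 proteins, 46 have a bacterial counterpart and 31 are specific to mitochondria. The remaining gene, Mrps36, encodes a component of the 2-oxoglutarate dehydrogenase complex and is not a ribosome subunit. The ribosome makes core subunits of the respiratory chain, which neural precursors are known to rely on more as they differentiate.

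The cells were adult hippocampal neural precursors from 6-week-old female mice, cultured as 3 stable lines with 5 libraries each. The lines are called Atf4, Atf3 and control cells here. Every line was made with the piggyBac transposon and carried a TRE3G promoter cassette, a Tet-On 3G transactivator driven by the SV40 promoter, and puromycin selection. The cassette held the Atf4 coding sequence in Atf4 cells, the Atf3 coding sequence in Atf3 cells, and neither in control cells. EGF and FGF2 were withdrawn from all 3 lines to start differentiation, all received doxycycline at 100 ng/ml, and RNA was taken after 10 h. Atf4 and Atf3 are basic leucine zipper transcription factors of the stress response. There was 1 line per construct, so a difference between lines and an effect of the transgene cannot be told apart. Whether replicates were grown as separate cultures is not stated, so the p-values rest on a spread between samples that may be technical.

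Libraries held 53.7 to 69.6 M counts. The Atf3 gene averaged 1.40 ± 0.306 CPM (CPM is the count of a gene relative to the total of its library, scaled by the TMM method) in Atf4 cells, 1941 ± 119.5 CPM in Atf3 cells and 5.02 ± 4.10 CPM in control cells (SD, n = 5 each). The Atf4 gene averaged 153 ± 21.7 CPM in Atf4 cells, 250.3 ± 16.5 CPM in Atf3 cells and 83.2 ± 6.75 CPM in control cells. Atf4 mRNA was thus higher in Atf3 cells than in cells that carry the Atf4 cassette. Gene counts do not separate cassette from endogenous transcripts. Precursor markers were abundant in every line, with Sox2 at 233 CPM in Atf4 cells, 224 CPM in Atf3 cells and 228 CPM in control cells. Not all were as even as Sox2. Log2 fold changes of the 8 precursor markers against control ran from -1.08 to 0.699 in Atf4 cells and from -0.477 to 1.18 in Atf3 cells. Of the markers of other cell types, those of the oligodendrocyte lineage, astrocytes, neurons and endothelial cells were also detected, and their values stand beside the results below.

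Mitochondrial ribosomal protein genes were higher as a group in both transgenic lines. Against the control line, 60 of 77 genes rose and 2 fell in Atf4 cells, while 70 rose and 2 fell in Atf3 cells, by edgeR's quasi-likelihood test with a Benjamini-Hochberg adjusted p under 0.05. Over all 18244 genes tested, 31.9% rose and 29.7% fell in Atf4 cells, and 36.8% rose and 36.3% fell in Atf3 cells. The median log2 fold change of the 77 genes was 0.23 in Atf4 cells and 0.35 in Atf3 cells, against -0.00085 and -0.018 over all genes. Genes at these expression levels more often rose in general. Among the 9764 genes with a mean of at least 10.9 CPM, the mean of the lowest of the 77, 44.1% rose in Atf4 cells and 51.9% in Atf3 cells, with medians of 0.057 and 0.12. Both comparisons use the same control libraries, so they are not independent of each other.

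Most of the changes were under 2-fold. A rise of at least 2-fold was called for Mrpl12 in Atf4 cells, where 4.19% of all genes rose that far, and for Mrpl12 and Mrps18b in Atf3 cells, where 7.12% did. Every Atf4 library lay above every control library for 50 genes and below for 1, against 26.1% and 21.8% of all genes. Every Atf3 library lay above every control library for 67 genes and below for 3, against 32% and 28.7% of all genes. The median log2 ratio of the 77 genes to the control mean was 0.18 to 0.28 in single Atf4 libraries and 0.33 to 0.41 in single Atf3 libraries, so no library of either line stood near 0. In bulk RNA, a change in the share of some cell type and a change in RNA per cell cannot be told apart.

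**Figure D1:**
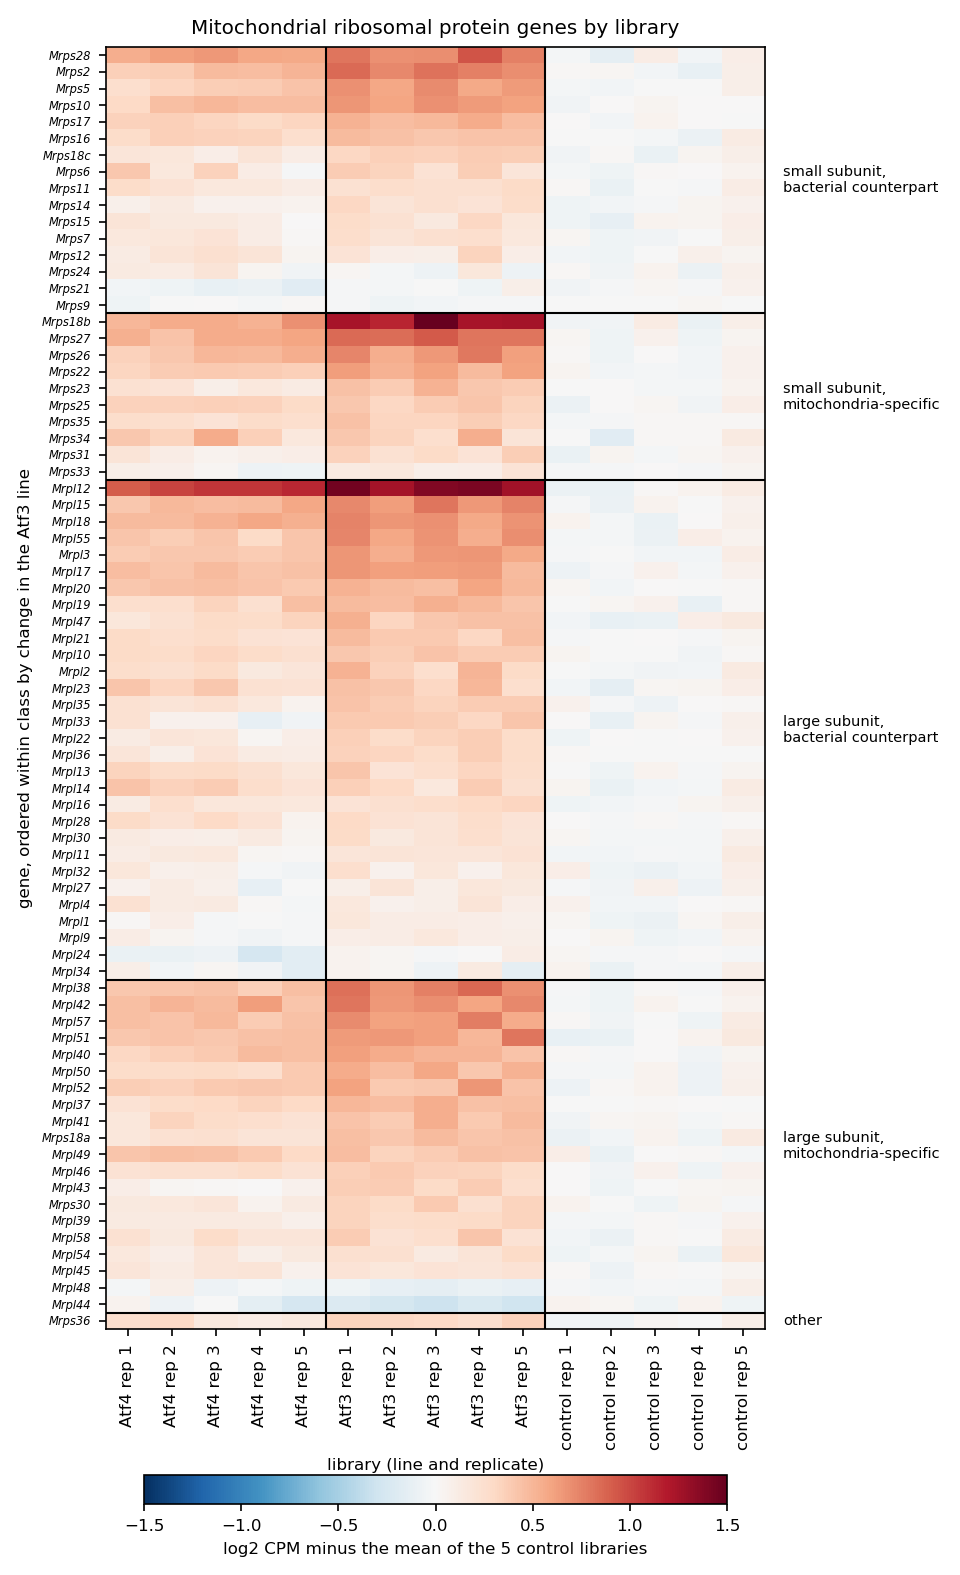
Each row is 1 of the 77 tested genes and each column 1 library, ordered as the Atf4, Atf3 and control lines with 5 replicates each. Colour gives log2 CPM minus the mean of the control libraries. Rows are grouped by subunit and by whether bacteria have a counterpart. Red covers most rows in both transgenic lines and is deeper in the Atf3 libraries, while Mrpl44 and Mrpl48 are pale blue there.

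Summed over the 78 genes, the mRNA pool came to 3263 ± 53.6 CPM in Atf4 cells, 3599 ± 75.03 CPM in Atf3 cells and 2764 ± 74.2 CPM in control cells (SD, n = 5 each). Atf4 libraries ran from 3190 to 3323 CPM, Atf3 libraries from 3519 to 3707 CPM and control libraries from 2687 to 2885 CPM. These ranges did not overlap. Scaled by plain library totals instead of TMM, Atf4 libraries (3229 to 3381 CPM) and Atf3 libraries (3358 to 3504 CPM) did overlap. With TMM scaling the ratio to control was 1.18 in Atf4 cells and 1.30 in Atf3 cells, and the Atf4 line held 0.907 of the Atf3 level. Mrpl12 alone made up 7.78% of the gain in Atf4 cells and 6.84% of that in Atf3 cells. Large-subunit mRNAs summed to 2165 CPM in Atf4 cells, 2388 CPM in Atf3 cells and 1819 CPM in control cells. Small-subunit mRNAs summed to 1063 CPM in Atf4 cells, 1173 CPM in Atf3 cells and 914 CPM in control cells. The large-to-small ratio was 2.04 ± 0.013 in Atf4 cells, 2.04 ± 0.011 in Atf3 cells and 1.99 ± 0.012 in control cells. The ratio spanned 2.03 to 2.06 over Atf4 libraries, 2.02 to 2.05 over Atf3 libraries and, with no overlap, 1.98 to 2.01 over control libraries, but this gap rested on Mrpl12. Without that gene, an alternative chosen after seeing the data, the ratio was 1.97 ± 0.011 in Atf4 cells, 1.96 ± 0.011 in Atf3 cells and 1.95 ± 0.013 in control cells, and the libraries of all 3 lines overlapped.

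Mrpl12 changed most in both lines. It encodes the counterpart of bacterial L12, a protein of the flexible stalk that meets the elongation factors, and its human protein has also been reported to bind the mitochondrial RNA polymerase. The gene (ENSMUSG00000039640) lies on GRCm38 chromosome 11 from 120484613 to 120489065, plus strand. It had 68.8, 74.3, 77.1, 77.4 and 80.2 CPM in Atf4 libraries, 101, 87.4, 95.9, 97.6 and 87.9 CPM in Atf3 libraries, and 34.6, 34.2, 37.1, 38.0 and 39.8 CPM in control libraries. All Atf3 libraries lay above all Atf4 libraries, and these above all control libraries. In edgeR's test Mrpl12 rose by 1.04 ± 0.053 SE in log2 units in Atf4 cells (2.06-fold, adjusted p = 1.04e-11) and by 1.35 ± 0.053 in Atf3 cells (2.55-fold, adjusted p = 1.53e-13). Of its exon bases, 13.1% are shared with the annotated gene Gm16755.

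Mrps18b encodes 1 of the 3 mammalian proteins related to bacterial S18, the one that sits in the small subunit at a position of its own. The gene (ENSMUSG00000024436) lies on GRCm38 chromosome 17 from 35910379 to 35916389, minus strand. It had 9.42, 9.83, 9.79, 9.52 and 10.8 CPM in Atf4 libraries, 15.7, 14.8, 18.9, 15.7 and 15.8 CPM in Atf3 libraries, and 6.39, 6.39, 7.24, 6.19 and 7.09 CPM in control libraries. The 3 lines did not overlap, and Atf3 replicate 3 was the highest library. Mrps18b rose by 0.57 ± 0.070 SE in Atf4 cells (1.48-fold, edgeR adjusted p = 1.19e-06) and by 1.28 ± 0.069 in Atf3 cells (2.43-fold, edgeR adjusted p = 8.08e-12). It also had the widest gap between the transgenic lines, -0.72 ± 0.067 SE for the Atf4 line against the Atf3 line (edgeR adjusted p = 4.24e-07).

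Mrps27 encodes a small-subunit protein with pentatricopeptide repeats, a fold known for binding RNA. The gene (ENSMUSG00000041632) lies on GRCm38 chromosome 13 from 99344786 to 99415562, plus strand. It had 30.0, 27.9, 30.6, 30.6 and 31.4 CPM in Atf4 libraries, 37.6, 37.1, 39.3, 36.4 and 36.2 CPM in Atf3 libraries, and 21.3, 19.8, 21.6, 19.9 and 21.4 CPM in control libraries. The lines were again separate, and the log2 fold change was 0.53 ± 0.042 SE in Atf4 cells (edgeR adjusted p = 3.06e-09) and 0.84 ± 0.042 in Atf3 cells (edgeR adjusted p = 2.56e-12). Mrps28, named as the counterpart of bacterial S1, followed with 22.9, 24.0, 24.7, 23.4 and 23.4 CPM in Atf4 libraries, 27.5, 25.4, 25.5, 30.2 and 26.6 CPM in Atf3 libraries, and 15.3, 14.3, 17.0, 15.2 and 16.8 CPM in control libraries. Its log2 fold change was 0.59 ± 0.055 SE in Atf4 cells (edgeR adjusted p = 3.23e-08) and 0.78 ± 0.055 in Atf3 cells (edgeR adjusted p = 3.16e-10), with no overlap between lines.

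Promoter sequences are shown for the 3 of these leading genes that have a promoter in the RefSeq table, and for Mrpl44, which encodes a large-subunit protein with an RNase III-like fold and fell in Atf3 cells. The windows run from 250 bases before to 50 bases after the annotated start, on GRCm38.p6, 5′ to 3′ on the strand of the gene. Capitals mark the GC-rich letters of nuclear respiratory factor 1 (NRF1), with 1 base left free, the letters CCGGAAG of ETS factors such as GABP, and AAGATGGCG of YY1, on either strand. These factors are known for their part in the transcription of nuclear genes for mitochondria. The Mrpl12 window is chr11:120484387-120484686 (plus strand) with an NRF1 match starting at position -81, and the Mrps18b window is chr17:35916391-35916690 (minus strand) with an ETS match at 44. The Mrps27 window is chr13:99344536-99344835 (plus strand) with an ETS match at -48 and a YY1 match at 15, and the Mrpl44 window is chr1:79775768-79776067 (plus strand) with an NRF1 match at -35.
Mrpl12: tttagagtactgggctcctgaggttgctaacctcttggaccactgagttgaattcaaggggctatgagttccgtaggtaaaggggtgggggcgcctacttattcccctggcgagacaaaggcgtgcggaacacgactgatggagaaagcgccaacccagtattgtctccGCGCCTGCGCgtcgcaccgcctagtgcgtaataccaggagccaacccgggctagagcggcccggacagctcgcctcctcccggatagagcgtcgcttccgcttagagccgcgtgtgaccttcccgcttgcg
Mrps18b: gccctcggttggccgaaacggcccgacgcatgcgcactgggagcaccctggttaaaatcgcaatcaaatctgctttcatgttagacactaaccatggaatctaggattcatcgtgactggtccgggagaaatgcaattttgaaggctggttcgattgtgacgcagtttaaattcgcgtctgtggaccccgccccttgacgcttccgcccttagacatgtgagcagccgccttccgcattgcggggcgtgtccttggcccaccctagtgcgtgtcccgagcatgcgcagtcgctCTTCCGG
Mrps27: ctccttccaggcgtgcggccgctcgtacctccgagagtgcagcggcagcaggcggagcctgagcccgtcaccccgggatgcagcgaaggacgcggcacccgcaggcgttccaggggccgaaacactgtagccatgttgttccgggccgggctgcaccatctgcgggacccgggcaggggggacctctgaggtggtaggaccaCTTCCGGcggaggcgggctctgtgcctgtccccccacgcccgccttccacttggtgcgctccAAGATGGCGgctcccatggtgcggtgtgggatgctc
Mrpl44: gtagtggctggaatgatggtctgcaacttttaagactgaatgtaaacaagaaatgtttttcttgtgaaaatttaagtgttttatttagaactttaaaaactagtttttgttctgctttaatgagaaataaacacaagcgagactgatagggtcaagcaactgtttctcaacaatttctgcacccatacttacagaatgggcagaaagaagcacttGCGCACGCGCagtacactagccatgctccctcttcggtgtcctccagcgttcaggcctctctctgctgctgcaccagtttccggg

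Other small-subunit genes with bacterial counterparts covered a broad range. Mrps2, the counterpart of bacterial S2, had 35.9, 36.1, 38.9, 38.5 and 39.7 CPM in Atf4 libraries, 50.2, 45.9, 49.1, 47.1 and 45.3 CPM in Atf3 libraries, and 28.3, 28.5, 27.2, 26.0 and 29.8 CPM in control libraries. The libraries of each line stayed apart from those of the others. Mrps2 rose by 0.44 ± 0.045 SE in Atf4 cells (edgeR adjusted p = 1.12e-07) and by 0.77 ± 0.045 in Atf3 cells (edgeR adjusted p = 2.32e-11). Mrps16, whose bacterial counterpart helps to assemble the small subunit, averaged 36.2 ± 1.18 CPM in Atf4 cells, 39.4 ± 0.787 CPM in Atf3 cells and 29.1 ± 1.63 CPM in control cells. Mrps12, the counterpart of the S12 protein of the decoding centre, averaged 28.4 ± 1.54 CPM in Atf4 cells, 28.6 ± 2.20 CPM in Atf3 cells and 25.5 ± 1.01 CPM in control cells. Mrps16 rose by 0.31 ± 0.040 SE and 0.43 ± 0.040 SE in the Atf4 and Atf3 lines (edgeR adjusted p = 1.93e-06 and 1.31e-08). For Mrps12 the changes were 0.16 ± 0.052 SE and 0.17 ± 0.052 SE (edgeR adjusted p = 0.0131 and 0.00742), and its Atf4 libraries overlapped the controls. The Mrps12 call in Atf4 cells was lost when Atf4 replicate 2, 3 or 4 or control replicate 2 was left out (edgeR adjusted p = 0.0501 to 0.0687). It was also lost with upper quartile scaling and with plain library totals (edgeR adjusted p = 0.0976 and 0.0511). The Mrps12 call in Atf3 cells was lost with these scalings (edgeR adjusted p = 0.417 and 0.611) and with a filter at 1 CPM (edgeR adjusted p = 0.0653). In all, 12 of the 16 small-subunit genes with a bacterial counterpart rose and 1 fell in Atf4 cells, and 13 rose in Atf3 cells. Their medians were 0.17 and 0.28. For comparison, 44.1% of all genes at a mean of at least 10.9 CPM rose in Atf4 cells and 51.9% in Atf3 cells.

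All 10 mitochondria-specific genes of the small subunit rose in Atf3 cells and 9 of 10 in Atf4 cells, with medians of 0.40 and 0.35. The exception in Atf4 cells, named after its value was seen, was Mrps33, at 0.013 ± 0.037 SE (edgeR adjusted p = 0.782), against 0.14 ± 0.037 in Atf3 cells (edgeR adjusted p = 0.00291). Mrps18b and Mrps27, described above, belong to this class, and the log2 fold changes of the 10 genes ran from 0.013 to 0.57 in Atf4 cells and from 0.14 to 1.28 in Atf3 cells. Of all genes at a mean of at least 10.9 CPM, 44.1% rose in Atf4 cells and 51.9% in Atf3 cells.

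Large-subunit genes with bacterial counterparts rose in 21 of 30 cases in Atf4 cells, where 1 fell, and in 28 of 30 in Atf3 cells. Their medians were 0.22 and 0.35. Their log2 fold changes ran from -0.14 to 1.04 in Atf4 cells and from 0.0042 to 1.35 in Atf3 cells. Mrpl12 stood at the top of both ranges. At a mean of at least 10.9 CPM, 44.1% of all genes rose in Atf4 cells and 51.9% in Atf3 cells. Mrpl11, the counterpart of the L11 protein at the base of the stalk, averaged 39.0 ± 1.69 CPM in Atf4 cells, 41.7 ± 0.455 CPM in Atf3 cells and 36.5 ± 2.02 CPM in control cells. It rose in Atf3 cells (log2 fold change 0.19 ± 0.041 SE, edgeR adjusted p = 0.000324) and was not called in Atf4 cells (0.093 ± 0.041 SE, edgeR adjusted p = 0.0548). Control replicate 5, at 40.1 CPM, stood above the other controls, and without it Mrpl11 was called in Atf4 cells too (0.12, edgeR adjusted p = 0.00951). The call in Atf3 cells was lost with upper quartile scaling (0.072, edgeR adjusted p = 0.121) and with plain library totals (0.054, edgeR adjusted p = 0.223).

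Mitochondria-specific large-subunit genes rose in 17 of 20 cases in Atf4 cells and in 18 of 20 in Atf3 cells, where the other 2 fell. Their medians were 0.25 and 0.42. The rising share of all genes at a mean of at least 10.9 CPM was 44.1% in Atf4 cells and 51.9% in Atf3 cells. Mrpl38, a large-subunit protein absent from bacterial ribosomes, had 48.4, 48.7, 49.6, 46.8 and 49.99 CPM in Atf4 libraries, 65.0, 57.9, 61.8, 66.6 and 58.8 CPM in Atf3 libraries, and 36.0, 35.0, 37.1, 36.1 and 38.5 CPM in control libraries. Its lines did not overlap, and it rose by 0.41 ± 0.042 SE in Atf4 cells (edgeR adjusted p = 9.31e-08) and by 0.76 ± 0.042 in Atf3 cells (edgeR adjusted p = 1.02e-11). Mrpl41 averaged 23.4 ± 1.00 CPM in Atf4 cells, 26.8 ± 1.28 CPM in Atf3 cells and 19.7 ± 0.538 CPM in control cells. It rose by 0.25 ± 0.043 SE in Atf4 cells and 0.44 ± 0.043 SE in Atf3 cells (edgeR adjusted p = 5.06e-05 and 2.25e-08). Mrpl58, also known as Ict1, encodes a peptidyl-tRNA hydrolase that frees stalled ribosomes and is built into the large subunit. It averaged 40.5 ± 1.46 CPM in Atf4 cells, 43.2 ± 2.85 CPM in Atf3 cells and 35.2 ± 1.91 CPM in control cells, and rose by 0.20 ± 0.048 SE and 0.30 ± 0.048 SE in the Atf4 and Atf3 lines (edgeR adjusted p = 0.00121 and 1.9e-05).

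**Figure D2:**
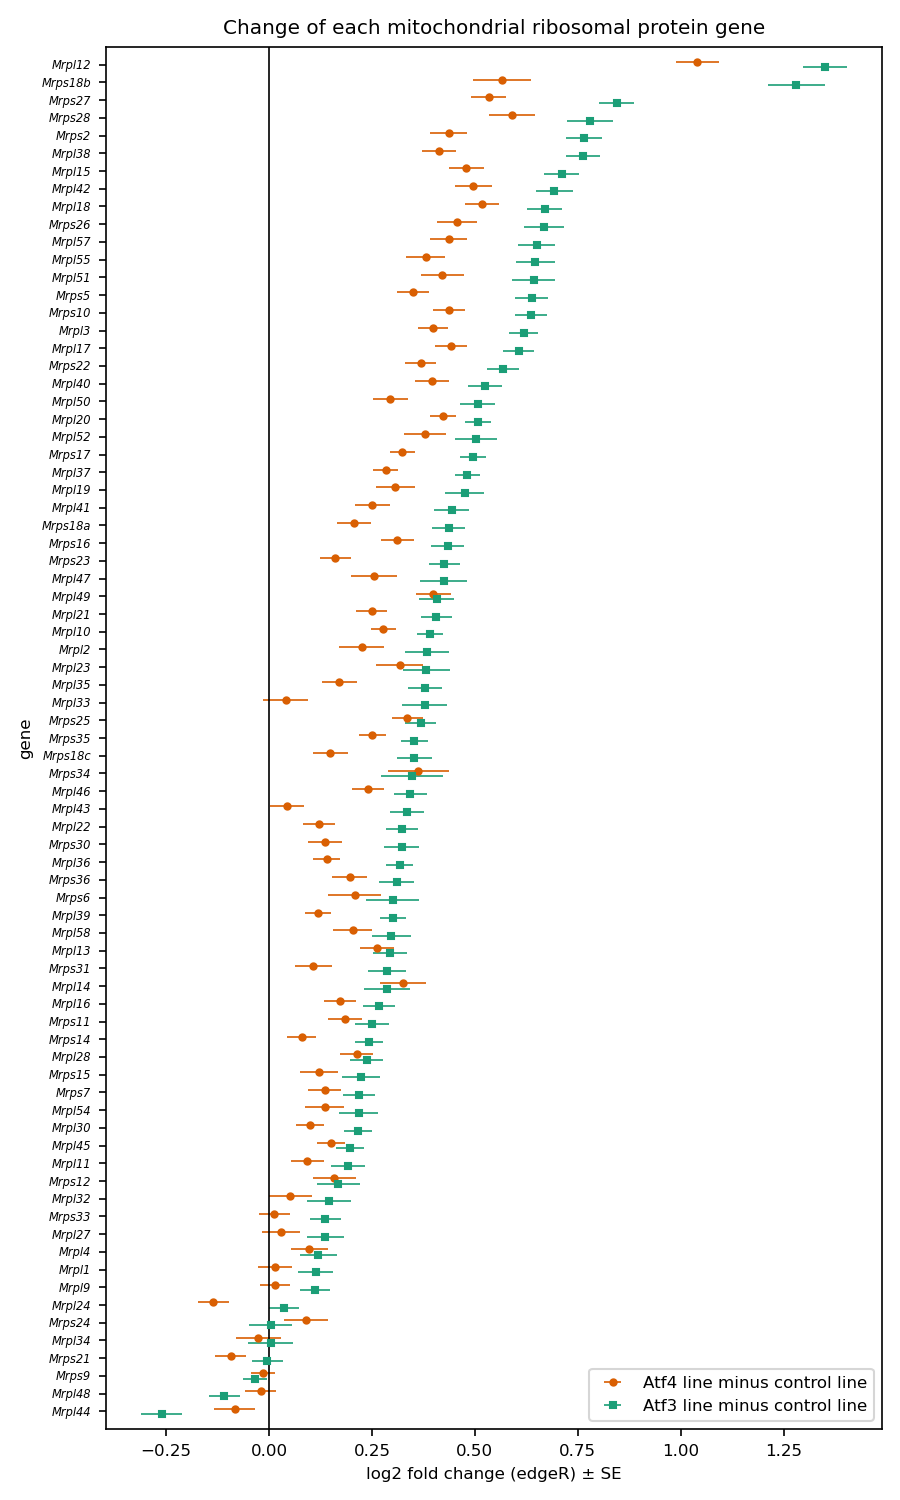
The log2 fold change with its SE is plotted for each of the 77 tested genes, as the Atf4 line minus control (circles) and the Atf3 line minus control (squares), ordered by the Atf3 value. Mrpl12 and Mrps18b stand apart at the top, and Mrpl44 and Mrpl48 are the only genes whose Atf3 value is called below 0.

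The proteins related to bacterial S18 come from 3 genes whose log2 fold changes varied in size. Mrps18c keeps the bacterial position in the small subunit, Mrps18b sits elsewhere in it, and Mrps18a belongs to the large subunit. Mrps18a averaged 39.8 ± 0.745 CPM in Atf4 cells, 46.6 ± 0.995 CPM in Atf3 cells and 34.5 ± 2.30 CPM in control cells. Mrps18c averaged 17.5 ± 0.531 CPM in Atf4 cells, 20.1 ± 0.380 CPM in Atf3 cells and 15.8 ± 0.820 CPM in control cells. Both rose in each line, Mrps18a by 0.21 and 0.44 and Mrps18c by 0.15 and 0.35 in the Atf4 and Atf3 lines (edgeR adjusted p = 0.000245, 1.63e-08, 0.00499 and 4.33e-07), all less than the 0.57 and 1.28 of Mrps18b. The Mrps18c call in Atf4 cells was lost with upper quartile scaling (0.093, edgeR adjusted p = 0.0619). The difference between the paralogs was not tested.

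Few genes fell. Mrpl44 (ENSMUSG00000026248; GRCm38 chromosome 1, 79776018 to 79781445, plus strand) had 47.1, 43.2, 45.3, 41.0 and 38.2 CPM in Atf4 libraries, 39.5, 38.0, 36.7, 38.8 and 37.0 CPM in Atf3 libraries, and 47.2, 46.2, 43.6, 47.2 and 43.5 CPM in control libraries. Every Atf3 library lay below every control library, while the Atf4 libraries spread across both. It fell by 0.26 ± 0.050 SE on the log2 scale in Atf3 cells (edgeR adjusted p = 0.000113), and its change of -0.084 ± 0.049 SE in Atf4 cells was not called (edgeR adjusted p = 0.152). That last value was called lower under some other settings, including without Atf4 replicate 1 (-0.13, edgeR adjusted p = 0.0264). Mrpl48, another mitochondria-specific large-subunit gene, had 34.8, 37.5, 33.7, 34.7 and 34.0 CPM in Atf4 libraries, 33.8, 32.6, 32.3, 33.1 and 32.4 CPM in Atf3 libraries, and 35.0, 34.5, 35.0, 34.8 and 37.8 CPM in control libraries. Its Atf3 libraries lay just below the controls, a fall of 0.11 ± 0.038 SE on the log2 scale (edgeR adjusted p = 0.0147) that was lost with no filter on low counts (adjusted p = 0.185). In the Atf4 line Mrpl48 was at -0.020 ± 0.038 SE (edgeR adjusted p = 0.658).

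In the Atf4 line the genes that fell were Mrpl24 and Mrps21, counterparts of bacterial L24 and S21. Mrpl24 had 45.1, 45.1, 45.9, 40.7 and 43.4 CPM in Atf4 libraries, 50.4, 49.3, 47.7, 48.7 and 52.1 CPM in Atf3 libraries, and 49.5, 48.0, 47.9, 48.8 and 47.8 CPM in control libraries. The Atf4 libraries lay below all others, at -0.14 ± 0.037 SE against control (edgeR adjusted p = 0.0039), and the Atf3 libraries overlapped the controls (0.037 ± 0.037 SE, edgeR adjusted p = 0.379). Mrps21 had 49.5, 48.4, 47.1, 47.6 and 45.1 CPM in Atf4 libraries, 50.2, 49.7, 50.5, 48.4 and 54.02 CPM in Atf3 libraries, and 48.9, 50.02, 51.8, 49.9 and 53.1 CPM in control libraries. Its Atf4 libraries overlapped the controls, and the change of -0.093 ± 0.037 SE (edgeR adjusted p = 0.0382) was lost when control replicate 5 or Atf3 replicate 1, 2 or 3 was left out (edgeR adjusted p = 0.0508 to 0.0518), without control replicates 4 and 5 (edgeR adjusted p = 0.0825) and with no filter on low counts (edgeR adjusted p = 0.256). In the Atf3 line Mrps21 was at -0.0041 ± 0.037 SE (edgeR adjusted p = 0.927), and Mrpl34, Mrps24 and Mrps9 were not called in either line. Scaling by plain library totals, which moves the median of all genes, called Mrpl24, Mrps21 and Mrpl34 lower in Atf3 cells (-0.10, -0.14 and -0.13, edgeR adjusted p = 0.0213, 0.00189 and 0.0333).

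Mrpl33, the counterpart of bacterial L33, was higher in Atf3 cells than in the other lines. It had 26.7, 23.7, 23.8, 20.9 and 22.0 CPM in Atf4 libraries, 30.0, 29.8, 29.5, 28.3 and 30.5 CPM in Atf3 libraries, and 22.8, 21.1, 23.5, 22.4 and 24.0 CPM in control libraries. The Atf3 libraries lay above all others, while the Atf4 libraries overlapped the controls. The log2 fold change was 0.040 ± 0.055 SE in Atf4 cells (edgeR adjusted p = 0.545) and 0.38 ± 0.055 SE in Atf3 cells (edgeR adjusted p = 5.35e-06), and the difference between those lines was itself called (-0.34 ± 0.055 SE, edgeR adjusted p = 8.48e-05). Mrpl43 and Mrps14, named after their values were seen, were at 0.044 and 0.079 in Atf4 cells, 0.34 and 0.24 in Atf3 cells, and -0.29 and -0.16 between the transgenic lines (edgeR adjusted p = 1.72e-05 and 0.000964 for the last pair). Mrpl43 shares 33.4% of its exon bases with Twnk, the gene of the mitochondrial DNA helicase, which rose in both transgenic lines.

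**Figure D3:**
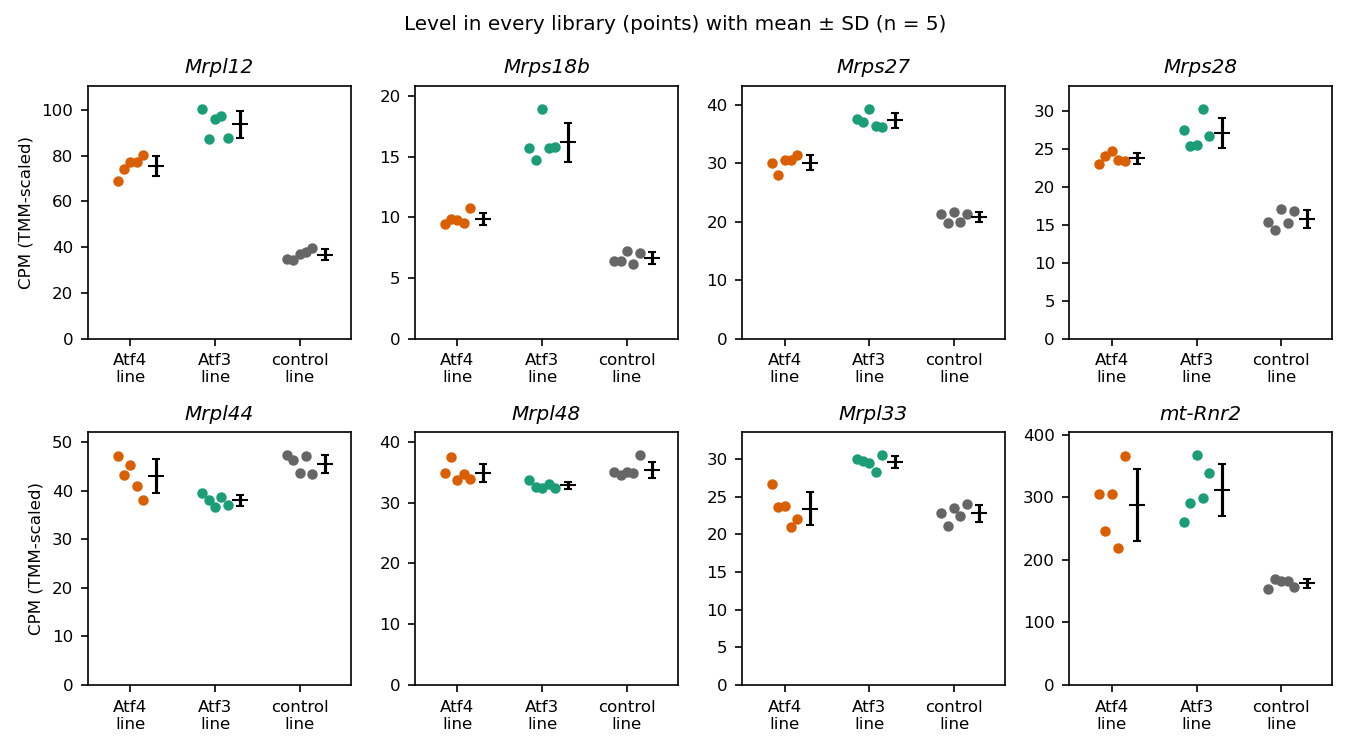
CPM in every library is shown for 7 mitochondrial ribosomal protein genes and the mitochondrial 16S rRNA gene mt-Rnr2, with the mean and SD of each line beside the points (n = 5). Mrpl12, Mrps18b, Mrps27 and Mrps28 form 3 separate levels, Mrpl44 and Mrpl48 are lowest in Atf3 cells, and Mrpl33 is raised in Atf3 cells while its Atf4 libraries overlap the controls.

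A direct comparison of the Atf4 line with the Atf3 line asked how far the transgenic lines differ. In the Atf4 line 49 of 77 genes were lower and 1, Mrpl44, was higher than in Atf3 cells, against 23.9% lower and 19.7% higher over all genes by the same edgeR test. The median log2 fold change was -0.15, against 0.0070 over all genes. Among the 9764 genes at a mean of at least 10.9 CPM, 36.6% were lower and 17.7% higher, with a median of -0.049. Every Atf4 library lay below every Atf3 library for 39 genes and above for 0, against 16.3% and 9.52% of all genes. The lower genes comprised 32 of the 50 tested large-subunit genes and 16 of the 26 small-subunit genes, with Mrps36. The Mrps36 call (edgeR adjusted p = 0.0351) was lost with upper quartile scaling, plain totals, either other filter, only these lines in the fit and in 8 of the 15 fits without 1 library, those without Atf4 replicate 3, 4 or 5, Atf3 replicate 1, 2 or 5 or control replicate 3 or 4 (edgeR adjusted p = 0.0525 to 0.827). Mrpl44 was at 0.18 ± 0.050 SE, with overlapping libraries (edgeR adjusted p = 0.00744). After Mrps18b, the widest gaps were those of Mrpl38 at -0.35 ± 0.041 SE, Mrpl33 and Mrps2 at -0.33 ± 0.044 SE (edgeR adjusted p = 3.86e-06, 8.48e-05 and 1.26e-05). Mrpl12 differed by -0.31 ± 0.052 SE (edgeR adjusted p = 9.74e-05).

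The size of this gap depended on the scaling of the libraries. With plain library totals 21 genes were lower and 5 higher in Atf4 cells than in Atf3 cells, with a median of -0.051, while all genes split into 6196 higher and 2369 lower, against 3595 higher and 4363 lower with TMM scaling. Plain totals also changed the split in Atf3 cells against control to 58 mitochondrial ribosomal protein genes higher and 7 lower, and that of all genes to 5214 higher and 8358 lower, against 6721 and 6630 with TMM scaling. The median of all genes was then at -0.16 in Atf3 cells against control and at 0.11 between the transgenic lines. A scaling shifts every gene alike, so the distance of the 77 genes from the median of all genes, 0.23 in Atf4 cells and 0.37 in Atf3 cells against control, cannot move with it. It did move with the genes that were kept, to 0.28 and 0.52 with no filter on low counts and to 0.19 and 0.30 with a filter at 1 CPM.

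Some members call for separate remarks. Mrps30, a large-subunit protein despite its name, averaged 18.3 ± 0.641 CPM in Atf4 cells, 20.8 ± 0.835 CPM in Atf3 cells and 16.6 ± 0.549 CPM in control cells. It rose by 0.14 ± 0.042 SE and 0.32 ± 0.042 SE in the Atf4 and Atf3 lines (edgeR adjusted p = 0.00877 and 1.29e-06), and the call in Atf4 cells was lost without control replicate 3 (edgeR adjusted p = 0.0528) and with upper quartile scaling (edgeR adjusted p = 0.111). Mrps36, the 2-oxoglutarate dehydrogenase component, averaged 35.2 ± 1.98 CPM in Atf4 cells, 38.1 ± 0.947 CPM in Atf3 cells and 30.7 ± 1.28 CPM in control cells and rose by 0.20 ± 0.042 SE and 0.31 ± 0.042 SE (edgeR adjusted p = 0.000525 and 2.33e-06). Mrpl53 had 0 counts in all 15 libraries, which allows a level of up to 0.0559 CPM in the shallowest library for counting error only, and 88.0% of its exon bases are shared with the annotated gene Gm42688.

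Per kilobase of merged exon, levels in control cells spanned 2.49 to 76.7 CPM per kb over 77 genes, a 30.8-fold range around a median of 13.5. Mrpl34 at 76.7, Mrps21 at 68.6 and Mrpl27 at 44.9 CPM per kb were highest, and Mrps18b at 3.19, Mrpl33 at 3.11 and Mrps30 at 2.49 CPM per kb were lowest. The lengths join all annotated exons of a gene, 607 bases for Mrpl34 and 739 for Mrps21 but 7326 for Mrpl33 and 6666 for Mrps30. The expressed transcript may be shorter, so this order depends on the annotation too. Before division by length, control means spanned 6.66 to 80.3 CPM. In the Atf4 line the first 3 stood at 75.3, 64.3 and 45.8 CPM per kb, and in Atf3 cells at 76.9, 68.4 and 49.4. Across the 77 genes, the control level per kb and the log2 fold change had a Spearman rho of -0.27 in Atf4 cells and -0.32 in Atf3 cells. These are descriptions over genes that share their libraries. The control libraries also enter both the level and the fold change, so these quantities are not independent. Mrpl27, the counterpart of an L27 protein close to the catalytic centre, averaged 45.1 ± 2.89 CPM in Atf4 cells, 48.6 ± 1.63 CPM in Atf3 cells and 44.2 ± 2.16 CPM in control cells. It was called in Atf3 cells (0.14 ± 0.046 SE, edgeR adjusted p = 0.0122) and not in Atf4 cells (0.029 ± 0.046 SE, edgeR adjusted p = 0.6). The Atf3 call was lost without control replicate 2 or 4 (edgeR adjusted p = 0.0550 and 0.0917) and with a filter at 1 CPM (edgeR adjusted p = 0.130). It was lost too under upper quartile scaling (0.017, edgeR adjusted p = 0.761) and with plain totals (-0.00064, edgeR adjusted p = 0.991). Mrpl34 averaged 45.7 ± 3.06 CPM in Atf4 cells, 46.7 ± 3.40 CPM in Atf3 cells and 46.5 ± 2.31 CPM in control cells.

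The counting strand is not given in the sources used here, so reads of overlapping genes may be mixed. Of the 78 genes, 33 overlap the exons of some other annotated gene, 10 of them over more than 20% of their bases. The share was 77.8% for Mrps34, mostly with Mapk8ip3, and 69.8% for Mrps25, with Nr2c2, and these genes' values are uncertain to that extent. Mrps18b shared 30.5% with Gm16279 (19 to 52 counts per library) and Mrps27 24.2% with 6430562O15Rik (51 to 197 counts). Mrpl24 shared 26.3% with Rrnad1, which had 1221 to 1746 counts beside its own 2328 to 3286. The fall of Mrpl24 in Atf4 cells carries this uncertainty. Among the 45 genes that share no exon base, 36 rose and 1 fell in Atf4 cells, and 42 rose and 0 fell in Atf3 cells, with medians of 0.21 and 0.38. The rising genes were 80.0% and 93.3% of them, against 44.1% and 51.9% of all genes at a mean of at least 10.9 CPM. Summed, these 45 genes came to 2008 ± 26.0 CPM in Atf4 cells, 2229 ± 46.7 CPM in Atf3 cells and 1709 ± 45.9 CPM in control cells, ratios to control of 1.18 and 1.30.

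The ribosome holds further proteins under other names, and all 5 of those examined rose in both lines. Of all genes at a mean of at least 10.9 CPM, 44.1% rose in Atf4 cells and 51.9% in Atf3 cells. Ptcd3, a small-subunit protein with pentatricopeptide repeats, averaged 67.5 ± 3.99 CPM in Atf4 cells, 84.6 ± 4.26 CPM in Atf3 cells and 48.7 ± 1.48 CPM in control cells. It rose by 0.47 ± 0.043 SE and 0.80 ± 0.043 SE (edgeR adjusted p = 2.78e-08 and 9.28e-12). Gadd45gip1, of the large subunit, rose by 0.48 ± 0.070 and 0.61 ± 0.070 SE, and Chchd1, of the small subunit, by 0.29 ± 0.045 and 0.48 ± 0.045 SE in the Atf4 and Atf3 lines. Aurkaip1 and Dap3, both of the small subunit, rose by 0.25 and 0.14 in Atf4 cells and by 0.41 and 0.21 in Atf3 cells. The edgeR adjusted p was at most 0.00443 in all 10 of these tests, although the Dap3 call was lost in Atf3 cells with plain totals (0.073, adjusted p = 0.0931) and in Atf4 cells with upper quartile scaling (0.085, adjusted p = 0.0721).

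How the library method treated rRNA is not given in the sources used here, so rRNA levels may not scale with their true amounts. mt-Rnr2, the 16S rRNA of the large subunit, had 305, 247, 305, 219 and 367 CPM in Atf4 libraries, 261, 290.4, 367, 299 and 338 CPM in Atf3 libraries, and 154, 169.7, 167, 167 and 156 CPM in control libraries. It rose by 0.83 ± 0.11 SE in Atf4 cells and 0.94 ± 0.11 SE in Atf3 cells (edgeR adjusted p = 2.6e-06 and 3.07e-07), and the transgenic lines overlapped widely. mt-Rnr1, the 12S rRNA of the small subunit, averaged 47.1 ± 3.40 CPM in Atf4 cells, 59.6 ± 6.60 CPM in Atf3 cells and 46.2 ± 2.09 CPM in control cells. It rose in Atf3 cells (0.37 ± 0.067 SE, edgeR adjusted p = 7.53e-05) and was not called in Atf4 cells (0.028 ± 0.067 SE, edgeR adjusted p = 0.732).

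Of 24 genes for ribosome assembly and rRNA modification, 15 rose and 1 fell in Atf4 cells, and 19 rose and 1 fell in Atf3 cells, with medians of 0.16 and 0.24. The rising genes were 62.5% and 79.2% of this list, against 44.1% and 51.9% of all genes at a mean of at least 10.9 CPM. Mrm3, a methyltransferase of the 16S rRNA, had 5.40, 5.43, 5.21, 4.99 and 6.53 CPM in Atf4 libraries, 7.49, 6.60, 7.87, 7.73 and 7.30 CPM in Atf3 libraries, and 3.31, 3.54, 3.20, 3.29 and 3.78 CPM in control libraries. Its lines did not overlap, with 0.69 ± 0.081 SE in Atf4 cells and 1.11 ± 0.080 SE in Atf3 cells (edgeR adjusted p = 6.98e-07 and 4.28e-10). Noa1, a GTPase of small-subunit assembly, rose by 0.32 and 0.58 in the Atf4 and Atf3 lines, and Tfb1m, which methylates the 12S rRNA, by 0.51 and 0.46. Malsu1 and Fastkd2, factors of the large subunit and its rRNA, rose by 0.18 and 0.14 in Atf4 cells and by 0.48 and 0.46 in Atf3 cells. The Fastkd2 call in Atf4 cells was lost with upper quartile scaling (0.082, edgeR adjusted p = 0.0894) and without control replicates 4 and 5 (edgeR adjusted p = 0.0590). The gene that fell was Mterf4, which acts with Nsun4 in large-subunit assembly, at -0.20 ± 0.051 SE and -0.25 ± 0.051 SE (edgeR adjusted p = 0.00188 and 0.000249).

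Of 15 translation factors, 6 (40%) were higher in Atf4 cells, against 44.1% of the genes at a mean of at least 10.9 CPM, and 8 (53.3%) were higher and 1 lower in Atf3 cells, against 51.9% higher of such genes. Their medians were 0.055 and 0.11, against 0.057 and 0.12 over those genes. These medians were -0.00081 and -0.013 with upper quartile scaling, and 0.019 and -0.031 with plain totals. The elongation factors were among the genes that rose. Tufm, the mitochondrial EF-Tu, averaged 101 ± 2.82 CPM in Atf4 cells, 119 ± 3.63 CPM in Atf3 cells and 77.4 ± 3.52 CPM in control cells. Gfm1, the mitochondrial EF-G, averaged 77.4 ± 2.61 CPM in Atf4 cells, 89.5 ± 5.33 CPM in Atf3 cells and 57.0 ± 2.06 CPM in control cells. Tsfm, the exchange factor of Tufm, averaged 24.9 ± 0.730 CPM in Atf4 cells, 29.2 ± 1.04 CPM in Atf3 cells and 17.1 ± 1.33 CPM in control cells. In the Atf4 and Atf3 lines Tufm rose by 0.39 and 0.62, Gfm1 by 0.44 and 0.65 and Tsfm by 0.54 and 0.77 (edgeR adjusted p at most 3.54e-08). Mtfmt, which formylates the initiator tRNA, fell in Atf3 cells (-0.16 ± 0.047 SE, edgeR adjusted p = 0.00547), a call lost with no filter on low counts (adjusted p = 0.0780).

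Of 19 mitochondrial aminoacyl-tRNA synthetases, which charge the tRNAs, 14 rose and 2 fell in Atf4 cells and 13 rose and 3 fell in Atf3 cells, with medians of 0.37 and 0.46. Rising synthetases were 73.7% and 68.4% of the list, against 44.1% and 51.9% of all genes at a mean of at least 10.9 CPM. Gars and Kars serve both the cytosol and mitochondria. Gars averaged 229 ± 27.4 CPM in Atf4 cells, 285 ± 20.1 CPM in Atf3 cells and 90.8 ± 1.24 CPM in control cells, and Kars averaged 139.6 ± 3.26 CPM in Atf4 cells, 157 ± 5.65 CPM in Atf3 cells and 105 ± 0.989 CPM in control cells. In the Atf4 and Atf3 lines Gars rose by 1.33 and 1.65, Kars by 0.42 and 0.59, Ears2 by 0.89 and 1.34 and Yars2 by 0.72 and 1.08. Aars2 and Fars2 fell, to log2 fold changes of -0.15 and -0.17 in Atf4 cells and of -0.29 and -0.21 in Atf3 cells (edgeR adjusted p at most 0.0271). The Fars2 call in Atf4 cells was lost without Atf4 replicate 4 or control replicate 5 (edgeR adjusted p = 0.0531 and 0.0557). It was also lost without control replicates 4 and 5 (edgeR adjusted p = 0.0856) and with no filter on low counts (edgeR adjusted p = 0.0877).

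Of 9 genes for the transcription and replication of mitochondrial DNA, 6 rose and 1 fell in Atf4 cells and 8 rose in Atf3 cells, with medians of 0.22 and 0.39. Rising genes were 66.7% and 88.9% of this short list, against 44.1% and 51.9% of all genes at a mean of at least 10.9 CPM. Mgme1, a nuclease of mitochondrial DNA replication, rose by 0.76 ± 0.062 SE and 0.96 ± 0.062 SE, and Tfam, the packaging and transcription factor, by 0.33 ± 0.045 SE and 0.63 ± 0.045 SE. Twnk rose by 0.34 ± 0.055 SE and 0.81 ± 0.055 SE. Tfb2m, the initiation factor of the mitochondrial RNA polymerase, fell in Atf4 cells (-0.10 ± 0.039 SE, edgeR adjusted p = 0.033) and rose in Atf3 cells (0.21 ± 0.039 SE, edgeR adjusted p = 0.000103), and the difference between these lines was -0.31 ± 0.039 SE (edgeR adjusted p = 7.52e-06). The Tfb2m rise was lost with plain totals (adjusted p = 0.105), and its fall with no filter on low counts (adjusted p = 0.238) and without control replicates 4 and 5 (adjusted p = 0.102).

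The mRNAs that the mitochondrial ribosome translates were mostly lower in Atf4 cells. The 13 mitochondrially encoded mRNAs summed to 33328 ± 1197 CPM in Atf4 cells, 38882 ± 2955 CPM in Atf3 cells and 38854 ± 577 CPM in control cells, and 9 of 13 fell and 0 rose in Atf4 cells while 3 rose and 2 fell in Atf3 cells. Of all genes at a mean of at least 10.9 CPM, 29.6% fell in Atf4 cells, and 51.9% rose and 31.4% fell in Atf3 cells. mt-Co1, a core subunit of cytochrome oxidase, averaged 8226 ± 335 CPM in Atf4 cells, 9230.0 ± 540.4 CPM in Atf3 cells and 10600.0 ± 201 CPM in control cells. It fell in both lines (-0.37 ± 0.039 SE and -0.20 ± 0.039 SE, edgeR adjusted p = 1.97e-07 and 0.000157). mt-Nd5 also fell in both lines (-0.38 ± 0.051 SE and -0.16 ± 0.051 SE, edgeR adjusted p = 3.38e-06 and 0.00779), while mt-Nd1 and mt-Nd2 rose in Atf3 cells (0.37 ± 0.051 SE and 0.38 ± 0.052 SE, edgeR adjusted p = 2.77e-06 and 2.2e-06). With plain totals 9 of the 13 were lower in Atf3 cells, so the direction there depended on the scaling.

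Cytosolic ribosomal protein genes and nuclear genes of the respiratory chain, the families most like this one, were also mostly higher in both lines. Of 76 cytosolic ribosomal protein genes, 55 rose and 0 fell in Atf4 cells and 69 rose and 2 fell in Atf3 cells, with medians of 0.15 and 0.30 beside the 0.23 and 0.35 of the mitochondrial family. Of 81 tested nuclear genes for the respiratory chain and ATP synthase, 47 rose and 4 fell in Atf4 cells and 67 rose and 2 fell in Atf3 cells, with medians of 0.15 and 0.26. Rising genes were 72.4% and 90.8% of the cytosolic family and 58.0% and 82.7% of the respiratory chain. Among all genes at a mean of at least 10.9 CPM, 44.1% rose in Atf4 cells and 51.9% in Atf3 cells. Between the transgenic lines, 55 and 43 genes of the cytosolic and respiratory families were lower in Atf4 cells, with medians of -0.16 and -0.10. The lower genes were 72.4% and 53.1% of each, against 36.6% of all genes at a mean of at least 10.9 CPM. With plain totals the medians between the transgenic lines were -0.059 for the cytosolic family, with 24 lower and 2 higher, and -0.00059 for the respiratory chain, with 9 lower and 5 higher. The difference between families was not tested.

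**Figure D4:**
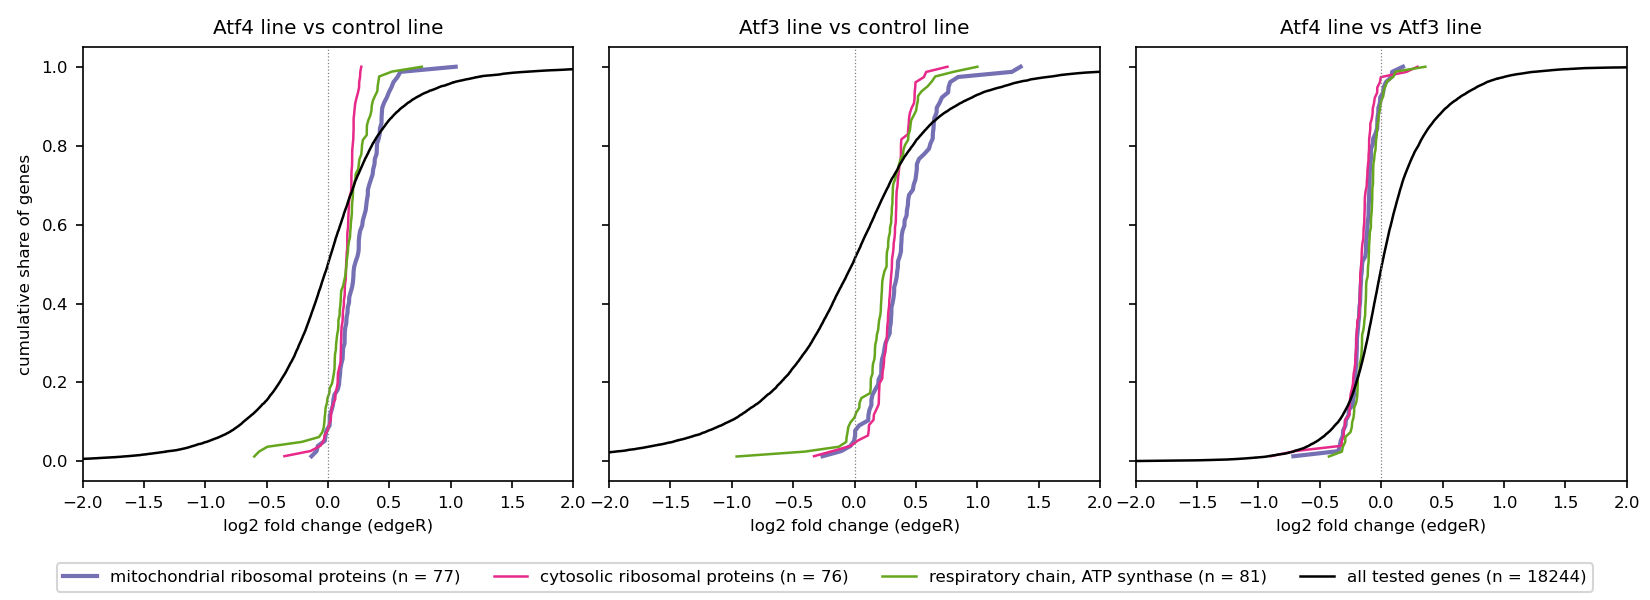
Cumulative share of genes against log2 fold change (edgeR) for the 77 mitochondrial ribosomal protein genes, 76 cytosolic ribosomal protein genes, 81 nuclear respiratory chain and ATP synthase genes and all 18244 tested genes, in 3 comparisons. The 3 families rise steeply within a narrow range, to the right of 0 in both lines against control and to the left of 0 in Atf4 against Atf3 cells, while all genes spread widely around 0.

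Some markers of other cell types also differed between the lines. Over all genes tested, 31.9% rose and 29.7% fell in Atf4 cells, and 36.8% rose and 36.3% fell in Atf3 cells. The marker lists are short, and their counts were not tested against these shares. Oligodendrocyte lineage markers fell in 6 of 7 tested cases in Atf4 cells and 7 of 7 in Atf3 cells, and the 8 listed summed to 3474 to 4047 CPM in Atf4 libraries, 2921 to 3733 CPM in Atf3 libraries and 3845 to 4417 CPM in control libraries. Astrocyte markers fell in 5 of 5 and 3 of 5 cases, with sums of 443 to 575 CPM in Atf4 libraries, 531 to 572 CPM in Atf3 libraries and 644 to 742 CPM in control libraries. Neuron markers fell in 3 of 5 tested cases in each line, with 1 higher in Atf4 cells and sums of 1360 to 1514 CPM, 1336 to 1563 CPM and 1642 to 1824 CPM in Atf4, Atf3 and control libraries. Precursor markers rose in 4 and fell in 2 of 8 cases in Atf4 cells and rose in 2 and fell in 2 in Atf3 cells, with sums of 3488 to 3576 CPM, 3795 to 3882 CPM and 3178 to 3446 CPM in Atf4, Atf3 and control libraries. Endothelial markers summed to 18.4 to 21.5 CPM in Atf4 libraries and 12.4 to 18.5 CPM in Atf3 libraries, all below the 44.8 to 49.1 CPM of control libraries, and of 3 tested 1 rose and 1 fell in Atf4 cells and 1 rose and 2 fell in Atf3 cells. Microglia markers summed to 0.702 to 1.22 CPM in Atf4 libraries, 1.104 to 1.47 CPM in Atf3 libraries and 0.653 to 1.27 CPM in control libraries, and of 2 tested 1 rose and 1 fell in each transgenic line. Stmn2, Mog, Cx3cr1, Aif1, Csf1r, Cdh5 and Cldn5 were at or near 0, with at most 0.252 CPM. The part of these cell types in the changes of the mitochondrial ribosomal protein genes was not tested.

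Promoter windows were matched for 69 of the 78 genes in the RefSeq table on GRCm38.p6, with 75 windows in all, and not for Mrpl4, Mrpl13, Mrpl15, Mrpl19, Mrpl38, Mrpl54, Mrps28, Mrps34 and Mrps35. The ETS letters CCGGAAG, searched on both strands like all others, were found for 26 of 69 genes (37.7%), against 18.3% of tested genes and 9.93% of all genes with a window. The NRF1 letters, capitalised in the Mrpl12 and Mrpl44 windows above, were found for 13 genes (18.8%), against 10.4% and 5.19%, and the YY1 letters AAGATGGCG for 8 genes (11.6%), against 3.18% and 1.64%. In all, 41 of the 69 genes had at least 1 of these 3 motifs, Mrps27 among them with both ETS and YY1. No motif string contains another.

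Motifs known for AP-1, CREB and ATF proteins were found for few of the 69 genes, and also for few genes in general. The AP-1 letters TGANTCA were found for 3 of 69 genes (4.35%), against 6.19% of tested genes and 8.97% of all genes, and the CRE letters TGACGTCA for 2 genes (2.90%), Mrpl16 and Mrpl49, against 3.47% and 2.03%. The letters TGATGNAA, from the composite element of C/EBP and ATF proteins, were found for 0 of 69 genes, against 2.72% and 4.51%. A match is not a bound site, and no match says only that these letters are not in the window. Median log2 fold changes with and without a motif lay close together for ETS in Atf4 cells, at 0.21 with it (25 tested genes) and 0.21 without it (43 genes). In the Atf3 line they were 0.43 with ETS and 0.32 without it. For NRF1 they were 0.12 with (13 genes) and 0.21 without (55 genes) in Atf4 cells, and 0.22 with and 0.38 without in Atf3 cells. For YY1 they were 0.195 with (8 genes) and 0.211 without (60 genes) in Atf4 cells, and 0.408 with and 0.348 without in Atf3 cells.

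**Figure D5:**
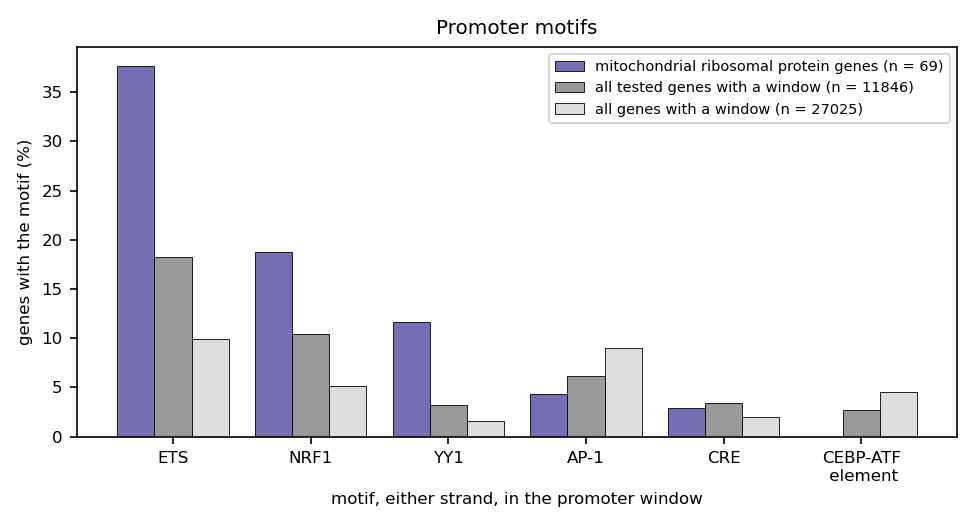
Bars give the percentage of genes whose promoter window holds each motif on either strand, for the 69 mitochondrial ribosomal protein genes with a window, tested genes with a window and all genes with a window. ETS, NRF1 and YY1 bars are higher for the mitochondrial ribosomal protein genes, at 37.7%, 18.8% and 11.6%. No gene of the family holds the composite element, which is also rare among tested genes, at 2.72%.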

How the data were processed

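RNA was sequenced in 15 libraries, 5 per line, as pairs of 150 bases on a NovaSeq from NEBNext Ultra libraries, per the labels' protocols. STAR, edgeR and the mm10 build are named in the submitters' processing notes without versions, while the sources used here do not give the counting program, its strand setting or the annotation. The deposited table holds whole-number read counts per gene, not normalized by the authors. Library totals ran from 53.7 to 69.6 M counts, so each of the 77 tested genes rests on 357 to 6120 counts per library. At most 0.253% of a library's counts fell on the 3333 identifiers that have no symbol.

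Symbols, exons and coordinates came from GENCODE M21 on GRCm38. Scaling was by TMM. Genes with few reads were left out by edgeR's default expression filter, and 18244 genes were tested by quasi-likelihood over all 3 lines together, with Benjamini-Hochberg adjustment over all of them and a threshold of 0.05 (edgeR 4.0.16, R 4.3.3). The same code was tested on simulated data. Gene counts of replicates differed by more than sampling noise, with chi-square per degree of freedom of 5.47 to 53.4, so all 15 libraries were kept. Alternatives were RLE, upper quartile and plain scaling, DESeq2 1.42.0, limma 3.58.1 (voom), other filters on low counts, fits of 2 lines, a replicate block and leaving out replicates.

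The genes and lists were chosen with earlier results of these data known. Mrps28 was moved to the class with bacterial counterparts after its values were seen, because its standard name is that of bacterial S1. Genes named in the text are the 4 largest rises and falls per comparison with lines that do not overlap, 11 members chosen by role, the 3 highest and lowest levels per kilobase, the 5 subunits with other names, and up to 2 rising and falling genes per pathway list and comparison. Mrpl43, Mrpl53, Mrps9, Mrps14, Mrps24, Mrps25, Mrps33 and Mrps34 were named after their values were seen. None of the 77 genes was called in opposite directions in the Atf4 and Atf3 lines. Promoter windows were read from RefSeq on GRCm38.p6.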

Additional observations from a re-analysis of the deposited data

Results flagged for a closer look

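Of 351 groups of 5 libraries examined, 22 had 1 library far from the other 4 (a gap over 0.71 of the range), 14 of them among 231 groups of mitochondrial ribosomal protein genes. Chance gives about 1 in 20. In the Atf4 line the highest library was replicate 2 for Mrpl1 (21.65 CPM) and Mrps14 (54.02 CPM) and replicate 5 for Mrpl50 (52.31 CPM), Ptcd3 (74.59 CPM) and Mrm3 (6.534 CPM). The lowest there was replicate 5 for Mrpl39 (45.61 CPM) and Mrps25 (44.41 CPM) and replicate 1 for Mrps10 (33.13 CPM). Aurkaip1 was highest in replicate 1 of both the Atf4 line (78.72 CPM) and the Atf3 line (89.49 CPM).

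In the Atf3 line replicate 3 was highest for Mrps18b (18.94 CPM) and replicate 5 for Mrpl11 (42.54 CPM). Replicate 5 was lowest there for Mrpl17 (87.7 CPM) and replicate 4 for mt-Rnr1 (48.06 CPM). The nuclear respiratory chain and ATP synthase genes summed highest in Atf3 replicate 1 (14524 CPM).

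In the control line replicate 5 was highest for Mrpl11 (40.11 CPM), Mrpl2 (40.6 CPM), Mrpl3 (54.8 CPM), Mrpl48 (37.76 CPM) and Dap3 (99.27 CPM), replicate 4 for Mrps9 (46.26 CPM) and replicate 2 for Ptcd3 (51.27 CPM).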

How the results depend on the processing

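The counts and medians moved most with the scaling. With upper quartile scaling 4 genes were lower in Atf4 cells and 4 in Atf3 cells, with medians of 0.17 and 0.23, and 4 were higher in Atf4 cells than in Atf3 cells, with a median of -0.089. With plain totals 7 were lower in Atf3 cells, the medians were 0.19 in Atf4 cells and 0.22 in Atf3 cells, and between the transgenic lines 5 were higher and 21 lower, with a median of -0.051. The summed level of the Atf3 line was 3448.8 CPM with upper quartile scaling and 3405.1 CPM with plain totals, and that of the control line 2878.5 and 2876.7 CPM. Summed levels of Atf4 libraries (3229 to 3381 CPM) and Atf3 libraries (3358 to 3504 CPM) overlapped with plain totals. With no filter on low counts 1 gene was lower in each line. With a filter at 1 CPM the Atf3 median was 0.29, and between the transgenic lines 2 genes were higher, with a median of -0.13. Without control replicates 4 and 5, 1 gene was lower in Atf4 cells. Without Mrpl12 the large-to-small ratio was 1.97 in Atf4 cells, 1.96 in Atf3 cells and 1.95 in control cells.

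Leaving out 1 replicate gave 53 to 61 genes higher and 1 to 3 lower in Atf4 cells, with medians of 0.19 to 0.24, and 65 to 70 higher and 2 to 2 lower in Atf3 cells, with medians of 0.33 to 0.37. Between the transgenic lines it gave 1 to 2 higher and 42 to 50 lower, with medians of -0.16 to -0.13. Summed levels were 3248 to 3281 CPM in Atf4 cells, 3572 to 3619 CPM in Atf3 cells and 2733 to 2783 CPM in control cells.

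Same-numbered replicates did not deviate together (correlations of -0.079 to 0.099), so these values gave no sign of pairing by number. How the replicates were prepared cannot be read from this. With the replicate block 59 genes were higher and 1 lower in Atf4 cells, 70 and 2 in Atf3 cells, and 1 and 45 between the transgenic lines. Of the named genes, Mrps21 and Tfb2m in Atf4 cells and Mrps36 between the transgenic lines were no longer called (edgeR adjusted p = 0.0662, 0.0567 and 0.0537).

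Some changes near 0 turned sign. In the Atf3 line Mrpl24 was at -0.084 with upper quartile scaling, -0.10 with plain totals and -0.024 with the 1 CPM filter. Mrpl27 was at -0.00064 with plain totals. Mrpl34 was at -0.0026 with DESeq2 and with RLE scaling, -0.12 with upper quartile scaling, -0.13 with plain totals, -0.056 with the 1 CPM filter and -0.034 to 0.041 over the fits that leave out 1 replicate. Mrps21 was at 0.025 with no filter and -0.033 to 0.015 leaving out replicates. In the Atf4 line Mrpl27 was at -0.027 with upper quartile scaling, -0.0068 with plain totals, -0.0043 with the 1 CPM filter and -0.011 to 0.049 leaving out replicates. Mrpl33 was at -0.016 with upper quartile scaling and -0.020 to 0.063 leaving out replicates, and Mrpl48 at 0.00092 with no filter. mt-Rnr1 was at -0.028 with upper quartile scaling, -0.0075 with plain totals, -0.0048 with the 1 CPM filter and -0.014 to 0.046 leaving out replicates. Between the transgenic lines, plain totals gave 0.032 for Dap3, 0.0025 for Mrpl11, 0.071 for Mrpl34, 0.0078 for Mrpl58, 0.092 for Mrps12 and 0.013 for Mrps21. Upper quartile scaling gave 0.034 for Mrpl34 and 0.055 for Mrps12. Mrps12 was at 0.017 with the 1 CPM filter, 0.0069 with only these lines and -0.032 to 0.034 leaving out replicates. Mrpl34 was at -0.064 to 0.0071 and Fars2 at -0.0090 to 0.076 leaving out replicates. Of all values of named genes under the alternatives, 3822 kept their direction and call, 68 lost a call, 31 gained one and 54 turned sign. The cause was not tested.

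The depth leaves counting error small, and 5 libraries from 1 line per construct limit what the comparisons cover.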

Other observations

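Many mitochondrial ribosomal protein genes start close to a gene read in the other direction. Of the 78 genes, 18 (23.1%) had a divergent protein-coding neighbour whose start lies within 1000 bp, against 6.76% of all protein-coding genes and 9.89% of those tested. Opposite-strand genes that overlap at their starts, such as Mrpl46 and Mrps11, were not counted in any of these shares. These 18 neighbours split in direction, with 8 higher and 4 lower in Atf4 cells and 10 higher and 6 lower in Atf3 cells by edgeR, and medians of 0.051 and 0.19. The higher ones were 44.4% and 55.6% of the neighbours, near the 44.1% and 51.9% of genes at a mean of at least 10.9 CPM. Of such genes 29.6% and 31.4% were lower, with medians of 0.057 and 0.12. Mrpl2, of the large subunit, and Klc4, a kinesin light chain gene, start 207 bp apart. The log2 fold change of Mrpl2 was 0.23 in Atf4 cells and 0.38 in Atf3 cells, and that of Klc4 was -0.54 and -0.89. Mrpl40 and Hira, a histone chaperone gene, start 175 bp apart and had 0.40 and 0.31 in Atf4 cells and 0.53 and 0.55 in Atf3 cells. These pairs were named after their values were seen, and no test was run on them.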
